A study of Mus musculus with 18 samples.

Results

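Bile acid synthesis and transport in the liver were followed through 10 genes in 18 mouse livers. The genes were taken by name as every row of the deposited count table called Cyp7a1, Cyp8b1, Cyp27a1, Cyp7b1, Slc27a5, Baat, Slc10a1, Abcb11, Nr1h4 or Nr0b2. All 10 were found among 32285 genes of the table, and all 10 passed the filter on low counts that left 13356 genes for testing. The study asked whether offspring are altered when the germline stem (GS) cells they descend from, which are cultured spermatogonial stem cells, have been kept frozen in space. GS cells of the DBA/2 strain were stored for 6 months aboard the International Space Station (Space) or on Earth (Ground), put into testes of infertile W mice, and passed on by mating these recipients with C57BL/6 females. Livers were taken from the resulting Space pups and Ground pups at 10 weeks of age and from wild-type BDF1 mice, whose age the labels do not give, with 6 libraries in each of the 3 groups. The labels give strain B6D2F1 and a wild-type genotype for every library, although by the study's methods the GS cells came from act-EGFP transgenic mice on a DBA/2 background, so pups, unlike BDF1 mice, may carry this ubiquitous reporter. The labels do not say how many GS cell cultures, recipient males or litters stand behind the pups.

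Hepatocytes make bile acids from cholesterol. The classic route starts with Cyp7a1, its rate-limiting hydroxylase, and Cyp8b1 then adds the hydroxyl group that turns the product toward cholic acid. The alternative route starts with Cyp27a1, the mitochondrial sterol 27-hydroxylase, and goes on through the oxysterol hydroxylase Cyp7b1. Slc27a5 activates bile acids to CoA esters and Baat joins them to taurine or glycine, Slc10a1 takes returning bile acids up from the blood, and Abcb11 pumps bile salts into the canaliculus. Nr1h4 encodes FXR, the nuclear receptor that senses bile acids, and Nr0b2 encodes SHP, the corepressor that FXR induces and that acts on Cyp7a1 and Cyp8b1. Cyp7a1 and Nr0b2 are known to follow the daily rhythm of liver, and Cyp7b1 is known to be higher in male than in female mouse liver.

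The RefSeq promoter table of build GRCm38.p6, which has the coordinates of mm10, held windows for 6 of the 10 genes, Cyp8b1, Cyp27a1, Slc10a1, Abcb11, Nr1h4 and Nr0b2. The 250 bases before the start are printed for the genes whose promoters are in the table and whose RNA fell in a group comparison below, Nr0b2 and Cyp27a1, and for Abcb11, which did not pass any such test. Capitals mark exact matches to one of the motifs searched on both strands.
Nr0b2, chr4:133553126-133553375, plus strand: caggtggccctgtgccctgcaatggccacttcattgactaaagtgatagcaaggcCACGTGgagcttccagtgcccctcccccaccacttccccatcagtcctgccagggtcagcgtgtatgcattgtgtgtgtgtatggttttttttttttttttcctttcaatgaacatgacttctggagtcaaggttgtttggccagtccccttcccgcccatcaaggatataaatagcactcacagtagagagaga
Cyp27a1, chr1:74713285-74713534, plus strand: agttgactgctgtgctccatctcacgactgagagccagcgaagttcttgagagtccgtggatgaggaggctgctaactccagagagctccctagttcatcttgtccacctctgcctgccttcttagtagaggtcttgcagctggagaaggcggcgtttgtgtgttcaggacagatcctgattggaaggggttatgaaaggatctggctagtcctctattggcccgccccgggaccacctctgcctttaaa
Abcb11, chr2:69342617-69342866, minus strand: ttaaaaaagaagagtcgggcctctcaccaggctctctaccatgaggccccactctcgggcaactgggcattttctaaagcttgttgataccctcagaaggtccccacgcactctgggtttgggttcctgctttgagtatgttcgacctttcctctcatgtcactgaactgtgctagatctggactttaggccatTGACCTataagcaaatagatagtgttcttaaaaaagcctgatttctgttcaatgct

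In the Nr0b2 window the capitals are an E-box, CACGTG, the letters known as the site of the CLOCK and BMAL1 dimer, from 195 to 190 bases before the start. It was the only E-box among 7 windows of the 6 genes (Slc10a1 has 2 starts), and 6.02% of all 32817 windows of this length held one. In the Abcb11 window they are a nuclear receptor site, AGGTCA read on the other strand, from 56 to 51 bases before the start. Nr1h4 and 1 of the Slc10a1 windows held AGGTCA too, against 14.0% of all windows. This Slc10a1 window (chr12:80968080-80968329) and the Nr1h4 window (chr10:89506659-89506908) belong to starts inside the gene spans given below. The Slc10a1 window next to its span (chr12:80968706-80968955) held no match. Only exact copies of each motif were searched, so sites with a mismatch were not counted. In the Abcb11 window the letters up to the end of the capitals, aggccatTGACCT, differ by 1 base from the inverted repeat of AGGTCA with 1 base between, the classic FXR element. No exact copy of this inverted repeat, or of the direct repeat with 1 base between, was found in these 7 windows. Exact copies were held by 0.00609% and 0.0335% of all windows. The extended site CAAGGTCA (1.33% of all windows) and the D-box TTATGTAA (0.817%), the letters bound by DBP and its relatives, were not found either. The Cyp27a1 and Cyp8b1 windows matched none of these motifs. The extended site contains AGGTCA, as do both repeats.

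Depth was even, with 15407450 to 20562351 counts per library, so that 3 counts, the most that an observed 0 allows for, came to between 0.134 and 0.234 CPM. CPM are counts per 10⁶ of a library size scaled by TMM (trimmed mean of M values), and intervals or limits of this kind cover counting error only. Replicates 1 to 3 and replicates 4 to 6 formed separate sets in every group. Xist had 0 to 187 counts in replicates 1 to 3 and 12218 to 21557 in replicates 4 to 6, and 4 Y-linked genes summed to 1822 to 2482 and to 0 to 26 counts. The study used both sexes and the labels name none, so sex and anything else that follows the replicate number cannot be told apart, and groups were compared within each set of 3 libraries. Albumin, Alb, took 17.6% to 24.1% of counts in pups 4 to 6, against 6.72% to 8.03% in BDF1 4 to 6 and 4.47% to 6.45% in all replicates 1 to 3. Serpina6 took 3.43% of counts in Space-4, 3.41% in Ground-5 and 2.18% in Ground-6, and at most 0.107% in the other libraries, so these 3 libraries stood apart. Hepatocyte markers were present in every library: all 5 were detected. In replicates 4 to 6 the 4 besides Alb summed to 23275 to 25809 CPM in Space and 18644 to 28735 in Ground, above 13697 to 16686 in BDF1, and in replicates 1 to 3 to 21347 to 23907, 17571 to 22490 and 14849 to 17704 CPM, where Space lay above BDF1. Summed markers of other cells ran from 56.5 to 159 CPM for Kupffer cells (all 4 detected) and 35.1 to 132 for intestine (2 of 3 detected). Lymphocyte markers (4 of 4 detected) were at 3.12 to 4.16 CPM in Space and 2.63 to 3.42 in Ground against 1.58 to 2.07 in BDF1 in replicates 4 to 6, and at 0.647 to 0.753, 0.469 to 1.37 and 0.783 to 1.22 CPM in replicates 1 to 3. Endothelial markers (4 of 4) were at 45.7 to 52.7 CPM in Space, 58.1 to 95.4 in Ground and 65.0 to 74.9 in BDF1 in replicates 1 to 3 and at 54.6 to 66.1, 84.1 to 103 and 45.9 to 94.8 CPM in replicates 4 to 6, so Space lay below Ground in both sets. Stellate markers (4 of 4) were at 152 to 169, 129.7 to 143 and 94.9 to 118 CPM in replicates 1 to 3, with no overlap of groups, and at 122 to 196 CPM in replicates 4 to 6, where the groups overlapped. In replicates 4 to 6, red cell markers were at 95.6 to 665 CPM in pups and 30.8 to 80.2 in BDF1, and pancreas markers (2 of 3 detected, chiefly Cela1) at 6.49 to 18.6 CPM in pups and 33.2 to 38.9 in BDF1. The part of any of these markers in the differences below was not tested. Libraries are separate animals per the series design, and in bulk tissue fewer cells of a type and less RNA per cell cannot be told apart.

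Read per kilobase of exon, the scale on which genes can be compared, the conjugating enzyme Slc27a5 had the highest mean of the 10 in both sets of BDF1 mice, at 279 CPM per kb in replicates 1 to 3 and 418 in replicates 4 to 6 (3 libraries each). The order of the others differed between the sets. Among replicates 1 to 3 Cyp8b1 at 234 and Cyp7b1 at 233 CPM per kb followed, then Slc10a1 at 202, Cyp27a1 at 195, Baat at 133 and Abcb11 at 130, and Nr0b2 at 45.5, Nr1h4 at 35.4 and the rate-limiting Cyp7a1 at 8.20 CPM per kb were lowest. Among replicates 4 to 6 Slc10a1 at 346, Cyp27a1 at 230, Abcb11 at 161, Cyp8b1 at 146 and Baat at 119 CPM per kb followed Slc27a5, and Nr0b2 at 49.1, Cyp7a1 at 44.7, Nr1h4 at 40.1 and Cyp7b1 at 24.0 were lowest. No test was made between genes, and the spread of close neighbours overlaps for pairs such as Cyp8b1 and Cyp7b1 in replicates 1 to 3.

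**Figure D1:**
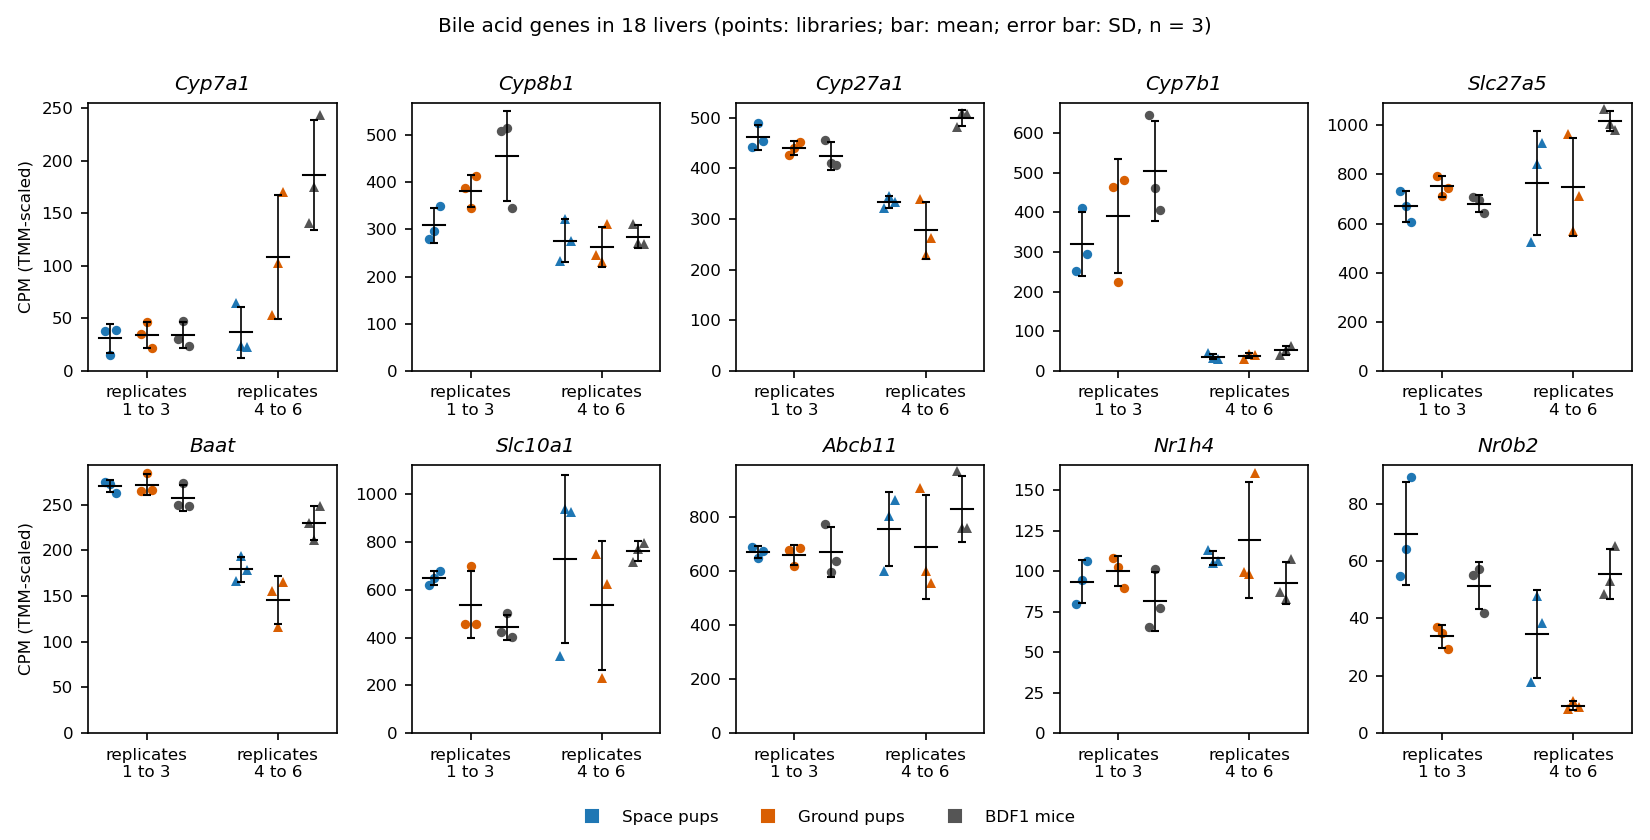
CPM of the 10 bile acid genes (y axis, TMM-scaled, from 0) in each library, by group and replicate set (x axis), with the mean and SD of 3 libraries. Nr0b2 sits at 8.2 to 11.3 CPM in Ground pups 4 to 6, Cyp7a1 is highest in BDF1 4 to 6 at 141 to 244 CPM, and Cyp7b1 is high in replicates 1 to 3 of every group.

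In replicates 4 to 6, part of the synthesis and feedback genes fell in pups. Nr0b2 was 5.85-fold lower in Ground pups than in BDF1 mice, Cyp7a1 was 5.07-fold lower in Space than in BDF1, and Cyp27a1 was lower in both kinds of pups. Between the pups, Nr0b2 was 3.65-fold higher in Space than in Ground. In replicates 1 to 3 none of the 10 genes passed the test in any of the comparisons. The test was the quasi-likelihood test of edgeR on raw counts, with Benjamini-Hochberg adjustment over all 13356 genes and a threshold of 0.05 for the adjusted p.

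The counts of called genes stand against the share of all genes called in the same comparison. For Space against Ground, 0 of 10 were called in replicates 1 to 3, where 0.00749% of all genes (1 gene) were, and 1 of 10 in replicates 4 to 6, where 0.0225% (3 genes) were. For Space against BDF1, 0 of 10 were called in replicates 1 to 3 against a background of 4.64%, and 2 of 10 in replicates 4 to 6 against 11.9%. For Ground against BDF1 the counts were 0 of 10 against 1.92% and 3 of 10 against 15.2%. Over the mean of both replicate sets, 1 of 10 was called between the pups (background 0.0225%), 1 between Space and BDF1 (12.9%) and 3 between Ground and BDF1 (14.6%). Against BDF1 the shares of 10 genes are not far enough from these backgrounds to be read as a result about the 10 genes, and between the pups the count is a single gene. The counts of 0 in replicates 1 to 3 compare with 1, 2 and 1 genes at an unadjusted p under 0.05 for Space against Ground, Space against BDF1 and Ground against BDF1, where 9.67%, 19.3% and 15.9% of all genes had such a p. DESeq2 and limma voom each called 1, 1 and 0 of the 10 there, namely Nr0b2 between the pups and Cyp8b1 between Space and BDF1, where DESeq2 called 0.352% and 7.41% and limma voom 3.62% and 17.7% of all genes. The median log2 change of the 10 genes was -0.48 in Ground and -0.39 in Space against BDF1 in replicates 4 to 6, beside 0.01 over all genes in both. In replicates 1 to 3 it was 0.03 in Ground and 0.04 in Space, beside 0.0086 and -0.0036.

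**Figure D2:**
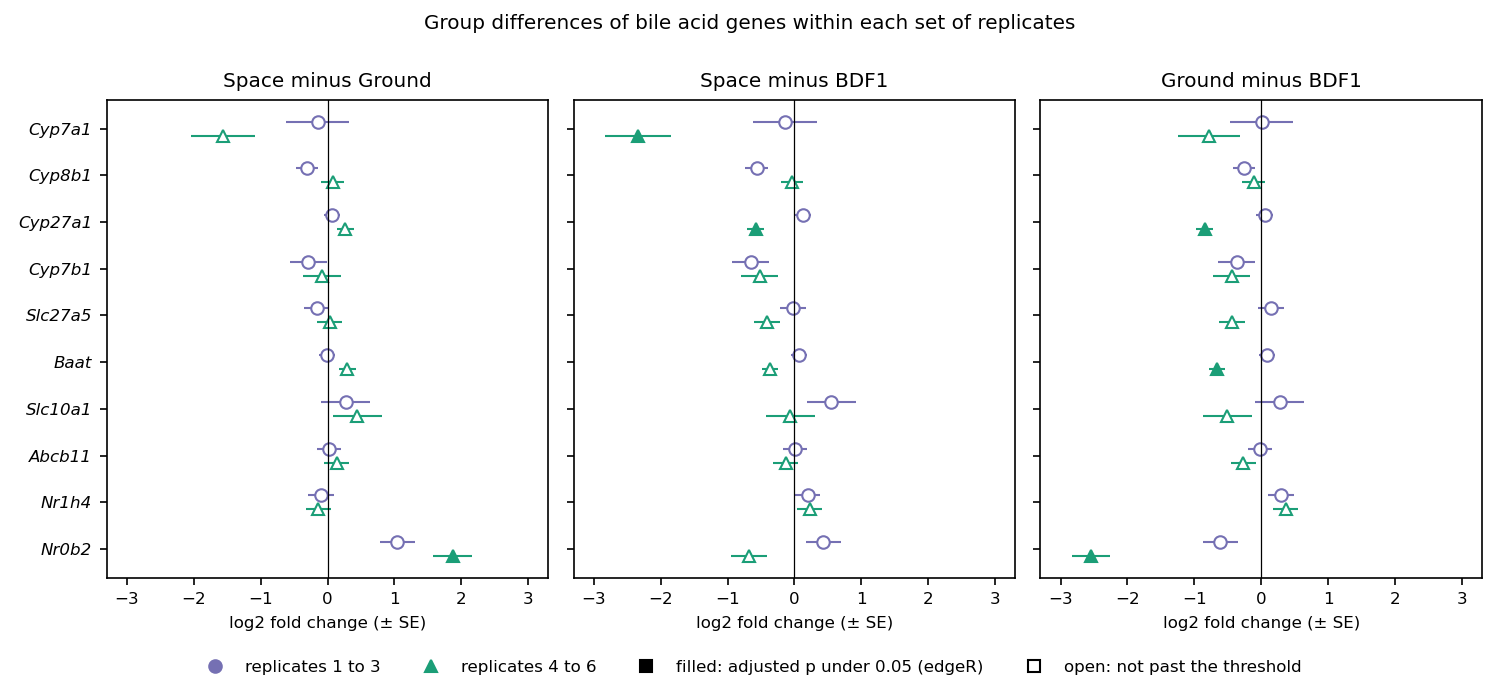
log2 fold changes with SE (x axis) of the 10 genes (y axis) in the 3 group comparisons, with replicates 1 to 3 as circles and replicates 4 to 6 as triangles, filled where the adjusted p of edgeR was under 0.05. The filled symbols are Nr0b2 in Space minus Ground, Cyp7a1 and Cyp27a1 in Space minus BDF1, and Cyp27a1, Baat and Nr0b2 in Ground minus BDF1, all in replicates 4 to 6.

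Nr0b2 (SHP, ENSMUSG00000037583, chr4:133553376-133556536, plus strand, mm10), whose promoter with the E-box is printed above, had the largest called change among the 10 genes in these 6 comparisons. Its level in replicates 4 to 6 was 8.2, 11.3 and 9.0 CPM in Ground-4, Ground-5 and Ground-6, which is 141, 172 and 130 counts. Space-4, Space-5 and Space-6 held 17.6, 47.7 and 38.4 CPM and BDF1-4, BDF1-5 and BDF1-6 held 48.4, 53.0 and 65.3 CPM. The 3 groups did not overlap: every Ground library lay below every Space library, and every Space library below every BDF1 library, with Space-4 nearest to the Ground pups. Ground fell against BDF1 with a log2 change of -2.55 (SE 0.29, adjusted p = 8.06e-05), a call kept when any one library was left out. Space exceeded Ground by a log2 change of 1.87 (SE 0.28, adjusted p = 0.0279). That call was lost in 8 of 18 fits that left out 1 library, with an adjusted p of up to 0.172, among them the fits without Space-5, Space-6, Ground-5 or Ground-6, while the change stayed between 1.57 and 2.18. Without Space-2, Ground-1, BDF1-3 or BDF1-5, which enter only through the shared estimate of spread or scaling, it was lost as well. It was also lost in limma voom (adjusted p = 0.076) and with each set fitted alone (adjusted p = 0.413). Space against BDF1 gave a log2 change of -0.68 (SE 0.27, adjusted p = 0.102).

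For replicates 1 to 3, Nr0b2 was at 54.8, 64.2 and 89.5 CPM in Space-1, Space-2 and Space-3, at 37.1, 34.9 and 29.3 CPM in Ground-1, Ground-2 and Ground-3, and at 55.3, 57.1 and 42.0 CPM in BDF1-1, BDF1-2 and BDF1-3. Ground pups were again lowest, with no Ground library reaching the lowest Space or BDF1 library, and Space and BDF1 overlapped. None of these differences passed: the log2 change was 1.04 for Space minus Ground (SE 0.27, adjusted p = 0.266), -0.61 for Ground minus BDF1 (SE 0.27, adjusted p = 0.269) and 0.43 for Space minus BDF1 (SE 0.26, adjusted p = 0.394). The Ground difference from BDF1 was larger in replicates 4 to 6 than in replicates 1 to 3, with a log2 change of -1.94 (SE 0.39, adjusted p = 0.0148) in the test of the difference itself. For Space minus Ground the same test gave 0.82 (SE 0.38, adjusted p = 0.637). Averaged over both sets, Nr0b2 was 2.74-fold higher in Space than in Ground pups (log2 change 1.46, SE 0.19, adjusted p = 0.0147) and 2.99-fold lower in Ground pups than in BDF1 mice (log2 change -1.58, SE 0.19, adjusted p = 0.000188). The averaged pup call was lost without Space-3, Ground-3 or Ground-6, where its adjusted p reached 0.0928, and both averaged calls were lost with group alone in the model (adjusted p = 0.376 and 0.0672).

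Cyp7a1 (ENSMUSG00000028240, chr4:6265612-6275633, minus strand), the gate of the classic route, was called in 1 group comparison within a set. Its level in BDF1-4, BDF1-5 and BDF1-6 was 141, 175 and 244 CPM. In Space-4, Space-5 and Space-6 it was 65.0, 23.4 and 22.5 CPM, and in Ground-4, Ground-5 and Ground-6 it was 52.9, 102 and 171 CPM. All Space libraries lay below all BDF1 libraries, whereas the Ground libraries spanned the range between and overlapped both. Space fell against BDF1 with a log2 change of -2.34 (SE 0.49, adjusted p = 0.00688), a call kept in all 18 fits without 1 library. Ground minus BDF1 was -0.78 (SE 0.47, adjusted p = 0.279) and Space minus Ground was -1.56 (SE 0.48, adjusted p = 0.202).

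The picture in replicates 1 to 3 was flat for Cyp7a1. Its level ran from 15.5 to 39.4 CPM in Space pups, from 21.5 to 46.4 in Ground pups and from 24.2 to 47.7 in BDF1 mice, with all groups overlapping. The 3 log2 changes lay between -0.15 and 0.00, with adjusted p of 0.907 or above. The Space difference from BDF1 changed by -2.20 between the sets (SE 0.68, adjusted p = 0.0856), so the difference between sets did not pass. It was called in 5 of 27 alternatives, with adjusted p down to 0.00552. Averaged over both sets, Space fell by 1.24 against BDF1 (SE 0.34, adjusted p = 0.0246). The averaged call was lost without Space-2, Space-5 or BDF1-2, with an adjusted p of up to 0.0648, and with group alone in the model (adjusted p = 0.108).

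Cyp27a1 (ENSMUSG00000026170, chr1:74713574-74737892, plus strand), the first enzyme of the alternative route, moved the same way in both kinds of pups. Replicates 4 to 6 held it at 481, 509 and 507 CPM in BDF1-4, BDF1-5 and BDF1-6, at 322, 345 and 333 CPM in Space-4, Space-5 and Space-6 and at 339, 230 and 263 CPM in Ground-4, Ground-5 and Ground-6. Both kinds of pups lay wholly below BDF1 and overlapped each other. Space fell by 0.58 (SE 0.12, adjusted p = 0.00717) and Ground by 0.85 in log2 units (SE 0.12, adjusted p = 0.000526), which is 1.496-fold and 1.80-fold lower. The Space call was lost when each set was fitted alone (adjusted p = 0.0659). Because both comparisons use the same 3 BDF1 libraries, they are not independent of each other.

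In replicates 1 to 3, by contrast, Cyp27a1 held 407 to 488 CPM over all 9 libraries, with all groups overlapping and log2 changes between 0.05 and 0.12. The differences from BDF1 were lower in the second set than in the first by 0.70 for Space (log2 change -0.70, SE 0.17, adjusted p = 0.037) and by 0.90 for Ground (log2 change -0.90, SE 0.17, adjusted p = 0.0127). The Space value lost its call in 11 of 18 fits without 1 library, with an adjusted p of up to 0.102, and these included each of the 6 Space libraries and every BDF1 library but BDF1-1. It was also lost without a filter on low counts (adjusted p = 0.0561). The Ground value was lost without Space-4, Ground-5 and Ground-6 together (adjusted p = 0.0534). The printed Cyp27a1 window held none of the motifs searched.

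Cyp7b1 (ENSMUSG00000039519, chr3:18071950-18243338, minus strand), the next enzyme of that route, differed most between the sets. Its level was 253, 411 and 296 CPM in Space-1, Space-2 and Space-3, 464, 224 and 482 CPM in Ground-1, Ground-2 and Ground-3 and 646, 461 and 405 CPM in BDF1-1, BDF1-2 and BDF1-3. The level in replicates 4 to 6 lay between 30.5 and 44.4 CPM in Space, 30.5 and 43.5 in Ground and 39.6 and 63.2 in BDF1. The lowest library of the first set exceeded the highest of the second in every group. Over all groups replicates 4 to 6 were 9.56-fold lower (log2 change -3.26, SE 0.17, adjusted p = 4.2e-10). Within the sets the groups overlapped, and the 6 comparisons between groups gave log2 changes from -0.65 to -0.08. Averaged over the sets, Space minus BDF1 was -0.59 (SE 0.20, adjusted p = 0.0585), just outside the threshold, and this difference was called in 7 of 28 alternatives, with adjusted p down to 0.00409. The span of the gene Gm23686 overlaps that of Cyp7b1 on the same strand. Overlap of their exons was not examined, and any reads they share cannot be told apart.

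Cyp8b1 (ENSMUSG00000050445, chr9:121914356-121916305, minus strand), which sets the share of cholic acid, differed most in the first set. Space-1, Space-2 and Space-3 held 279, 296 and 350 CPM, Ground-1, Ground-2 and Ground-3 held 388, 345 and 413 CPM, and BDF1-1, BDF1-2 and BDF1-3 held 508, 514 and 345 CPM. The means descended from BDF1 to Ground to Space, but BDF1-3 lay within the pups' range and the groups overlapped. Space minus BDF1 was -0.56 (SE 0.17, adjusted p = 0.0699), which did not pass in edgeR and passed in DESeq2 (adjusted p = 0.0194) and limma voom (adjusted p = 0.0157). Later replicates, 4 to 6, had Cyp8b1 between 231 and 322 CPM in all 9 libraries, with log2 changes between -0.11 and 0.08. Over all groups it was 1.38-fold lower in replicates 4 to 6 than in replicates 1 to 3 (log2 change -0.46, SE 0.10, adjusted p = 0.0014).

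Of the conjugating enzymes, Baat passed in a group comparison and Slc27a5 did not, and they were not tested against each other. Baat (ENSMUSG00000039653, chr4:49489422-49506557, minus strand) was steady in replicates 1 to 3, at 249 to 285 CPM over 9 libraries. Replicates 4 to 6 held 230, 211 and 249 CPM in BDF1, 166, 194 and 178 CPM in Space and 156, 116 and 166 CPM in Ground. The 3 groups did not overlap there, since the highest Ground library, at 165.9 CPM, was just under the lowest Space library, at 166.1 CPM. Ground fell against BDF1 with a log2 change of -0.66 (SE 0.12, adjusted p = 0.0025), and Space minus BDF1 was -0.36 (SE 0.12, adjusted p = 0.0617). The Ground difference was larger than in replicates 1 to 3 (log2 change -0.74, SE 0.17, adjusted p = 0.03), a call lost in 9 of 18 fits without 1 library, with an adjusted p of up to 0.0928 (without Ground-1, Ground-2, Ground-3 or Ground-5, or BDF1-1, BDF1-2, BDF1-3, BDF1-4 or BDF1-6). The mean over both sets fell by 0.29 (SE 0.09, adjusted p = 0.0336), and 8 such fits lost that call, with an adjusted p of up to 0.0825 (without Ground-1, Ground-3 or Ground-5, or BDF1-1, BDF1-2, BDF1-3, BDF1-4 or BDF1-6). It was lost too without a filter on low counts (adjusted p = 0.0602), with group alone in the model (0.579) and without Space-4, Ground-5 and Ground-6 (0.0598).

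Slc27a5 (ENSMUSG00000030382, chr7:12988346-12998192, minus strand), which acts just before Baat, passed in no comparison. In replicates 4 to 6 it was at 526, 842 and 927 CPM in Space-4, Space-5 and Space-6, at 965, 569 and 714 CPM in Ground-4, Ground-5 and Ground-6 and at 1065, 1006 and 983 CPM in BDF1. Every pup lay below every BDF1 library, with the lowest values in Space-4 and Ground-5. The differences of -0.41 for Space (SE 0.19, adjusted p = 0.165) and -0.44 for Ground (SE 0.19, adjusted p = 0.131) did not pass. Of 28 alternatives, 1 called the Space difference (adjusted p = 0.0252) and 3 the Ground difference (adjusted p down to 0.0115). In replicates 1 to 3 it held 608 to 796 CPM over all 9 libraries. There every Ground library (714 to 796 CPM) lay above every BDF1 library (641 to 707 CPM), without passing (log2 change 0.14, SE 0.19, adjusted p = 0.771).

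Of the transporters, neither passed in any of the group comparisons. Slc10a1 (NTCP, ENSMUSG00000021135, chr12:80953183-80968705, minus strand) was at 321, 939 and 925 CPM in Space-4, Space-5 and Space-6 and at 750, 231 and 624.8 CPM in Ground-4, Ground-5 and Ground-6, against 716, 771 and 798 CPM in BDF1. Space-4 and Ground-5, 2 of the 3 libraries with high Serpina6, held less than any other library of the 18. Of the other pups of that set, Space-5 and Space-6 lay above every BDF1 library, Ground-6 below every one, and Ground-4 within their range. In the first set the level was 622 to 677 CPM in Space, 455 to 701 in Ground and 404 to 504 in BDF1, so Space lay above BDF1 without passing (log2 change 0.55, SE 0.37, adjusted p = 0.443). Without Space-4, Ground-5 and Ground-6, a set left out after seeing the data, the same change of Slc10a1 in replicates 1 to 3 was 0.54 with an adjusted p of 0.0314, while Space minus BDF1 in replicates 4 to 6 turned from -0.06 to 0.29 (adjusted p = 0.267).

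Abcb11 (BSEP, ENSMUSG00000027048, chr2:69238282-69342616, minus strand), whose promoter with an AGGTCA site is printed above, stayed within 556 to 969 CPM over all 18 libraries. In replicates 1 to 3 the group means were 671 ± 21.1 CPM in Space, 660 ± 36.8 in Ground and 669 ± 92.4 in BDF1 (SD, n = 3 each), and the log2 changes lay between -0.02 and 0.02 (SE 0.18 each). Replicates 4 to 6 gave 756 ± 137 CPM in Space, 689 ± 192 in Ground and 828.7 ± 122 in BDF1 (SD, n = 3 each). The log2 changes ran from -0.27 to 0.13 with the groups overlapping, and 2 of 28 alternatives called Ground minus BDF1 (adjusted p down to 0.0336). Its gene overlaps Gm13614 and Gm13613 on the opposite strand, and the strand setting of the counting is not given in the sources used here.

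Nr1h4 (FXR, ENSMUSG00000047638, chr10:89454234-89533585, minus strand) passed in no comparison either. It was at 79.8 to 106 CPM in Space, 89.8 to 108 in Ground and 65.6 to 101 in BDF1 in replicates 1 to 3, and at 105 to 113, 97.99 to 161 and 82.9 to 107 CPM in replicates 4 to 6. The groups overlapped in both sets. The log2 changes against BDF1 were 0.20 and 0.23 for Space and 0.30 and 0.37 for Ground (SE 0.19 each), and the smallest adjusted p among the 6 comparisons was 0.202. In Ground pups 4 to 6 the receptor gene Nr1h4 had a mean of 51.8 CPM per kb and its target Nr0b2 8.40, against 40.1 and 49.1 in BDF1 4 to 6. The changes of these genes were not tested against each other.

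Left without Space-4, Ground-5 and Ground-6, the counts of called genes in replicates 4 to 6 were 1 of 10 between the pups (Nr0b2, log2 change 2.38, adjusted p = 0.0314), 2 of 10 between Space and BDF1 (Cyp7a1 and Cyp27a1) and 4 of 10 between Ground and BDF1, where Cyp7a1 was added (log2 change -1.81, adjusted p = 0.0481). The shares of all genes called in that fit were 0.00708%, 9.62% and 7.56%. Ground is then a single library, Ground-4, which is assumed to vary like the other groups. Cyp27a1 in Ground against BDF1 was -0.55 in that fit (adjusted p = 0.0179) and Baat was -0.56 (adjusted p = 0.0189).

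Between the replicate sets themselves, 6 of the 10 genes differed between replicates 4 to 6 and 1 to 3 over all groups, where 38.0% of all genes did. Cyp7a1 was 2.74-fold higher (log2 change 1.45, SE 0.28, adjusted p = 0.000614). Nr0b2 was lower by 0.91 and Baat by 0.55, Cyp8b1 by 0.46 and Cyp27a1 by 0.30 on the log2 scale (log2 changes -0.91, -0.55, -0.46 and -0.30), besides Cyp7b1. For Nr0b2, Cyp27a1 and Baat this mean covers groups whose differences from BDF1 were unequal between the sets by the test that follows. Cyp27a1 had higher means in the second set of BDF1, 424 ± 27.0 and 499 ± 15.6 CPM, and lower ones in Space, 461 ± 24.4 and 333 ± 11.3 CPM, and in Ground, 439 ± 13.7 and 277 ± 56.1 CPM (SD, n = 3 each). Nr0b2 had means of 51.5 ± 8.26 and 55.6 ± 8.75 CPM in the sets of BDF1, and Cyp7a1, for which none of these tests passed, 30.9 ± 13.4 and 37.0 ± 24.3 CPM in the sets of Space (SD, n = 3 each). The test of unequal group differences between sets called 1 of 10 for Space minus BDF1 (Cyp27a1, background 3.19%) and 3 of 10 for Ground minus BDF1 (Nr0b2, Cyp27a1 and Baat, background 2.74%). For Space minus Ground it called 0 of 10 and 0% of all genes in edgeR, where 1 of the 10 and 1038 of all genes had an unadjusted p under 0.05. DESeq2 called 30 genes there and limma voom 12, none of them among the 10.

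Clock genes were read beside these differences. Dbp, a transcription factor driven by the clock, was at 0.8 to 1.1 CPM in BDF1 1 to 3, at 1.9 to 6.0 CPM in pups 1 to 3, at 95.5, 201 and 206 CPM in BDF1 4 to 6 and at 72.1 to 107 CPM in pups 4 to 6. BDF1 mice thus had the lowest levels in the first set, and in the second the highest pup lay above BDF1-4 and below BDF1-5 and BDF1-6. Of 17 clock genes tested, 8 rose in Space against BDF1 in replicates 1 to 3 and 3 rose in Ground, with 0 lower in both, against backgrounds of 4.64% and 1.92% of all genes. In replicates 4 to 6, 2 rose and 1 fell in Space and 2 rose and 2 fell in Ground, against 11.9% and 15.2%, which is near the share of all genes. Per3, a period gene, was at 3.06 to 5.59 CPM in Space and 2.53 to 3.33 in Ground against 0.627 to 0.843 in BDF1 in replicates 1 to 3, a rise by log2 changes of 2.46 (adjusted p = 0.0019) and 1.96 (adjusted p = 0.019). Per3 then fell by 1.11 in Space (adjusted p = 0.0123) and by 1.01 in Ground (adjusted p = 0.0148) in replicates 4 to 6, and Dbp fell by 0.99 in Ground (adjusted p = 0.0312). Ciart, a repressor of the clock loop, rose in Space in replicates 1 to 3 (log2 change 3.52, adjusted p = 0.0382) from 0.0522 to 0.329 CPM in BDF1, where the limit set by 3 counts lies, to 1.59 to 2.85 CPM. Those 3 genes had the largest spread of the 17 over the 18 libraries. Between the pups 0 of 17 passed in edgeR in either set, and 6 and 1 had an unadjusted p under 0.05, as had 9.67% and 13.9% of all genes. The times at which livers were taken are not given in the labels, and the part of the clock genes in the differences of Cyp7a1 and Nr0b2 was not tested.

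**Figure D3:**
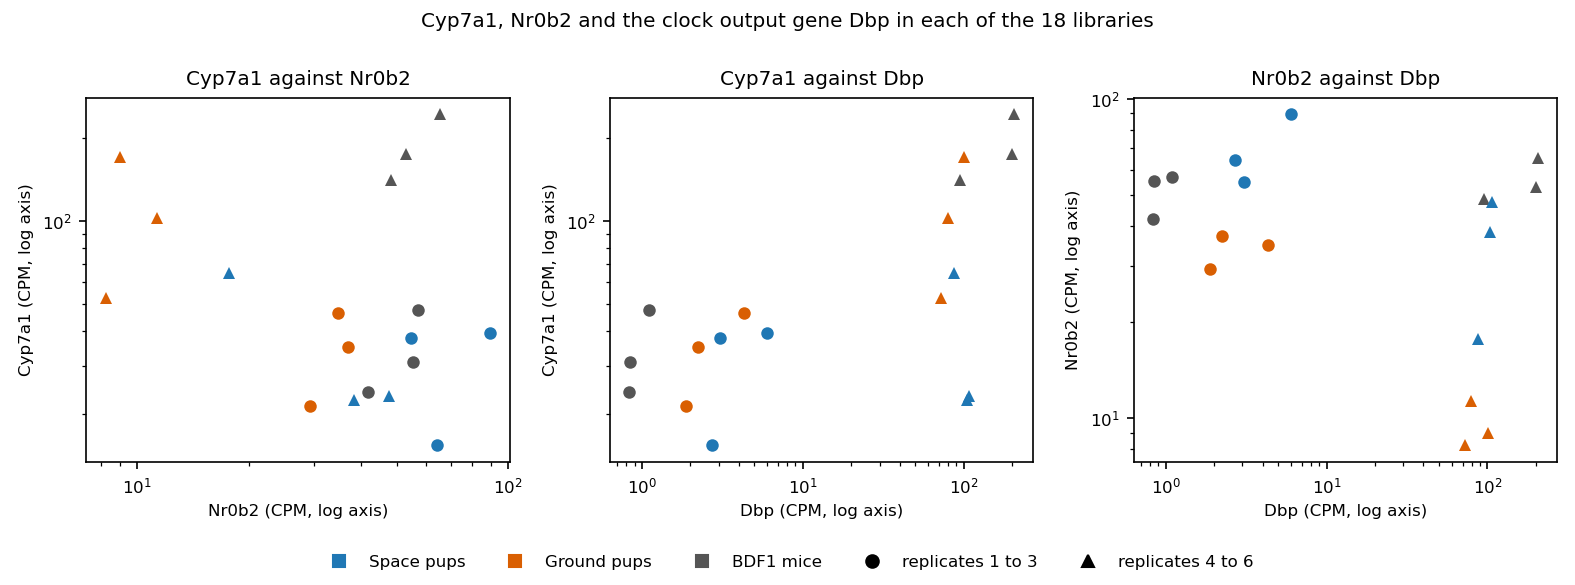
Levels in each of the 18 libraries on log axes (CPM), with Cyp7a1 against Nr0b2 (left), Cyp7a1 against Dbp (middle) and Nr0b2 against Dbp (right), coloured by group, with circles for replicates 1 to 3 and triangles for replicates 4 to 6. The BDF1 triangles lie at 48.4 to 65.3 CPM of Nr0b2 and 141 to 244 CPM of Cyp7a1, and the Ground triangles at 8.2 to 11.3 and 52.9 to 171 CPM.

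Nr0b2 is known as a repressor of Cyp7a1, and their levels were compared across libraries. Deviations of log2 CPM from the mean of each group and replicate set gave Pearson's r of -0.15 (permutation p = 0.748) and Spearman's rho of 0.06 (permutation p = 0.868) over 18 libraries. Without the 2 libraries farthest from the median of Cyp7a1, Space-4 and Ground-4, r was 0.12. Over the 14 libraries left without Space-4, Ground-5, Ground-6 and Ground-4, a choice made after seeing the data, r was 0.55, and this value was not tested. In 7 such relations the exact permutation within groups and replicate sets, 46656 arrangements, passed for none after Benjamini-Hochberg adjustment. The smallest p belonged to Nr0b2 with Dbp (r = 0.47, p = 0.0162, adjusted 0.113, and rho = 0.61, p = 0.00744, adjusted 0.0521, exact permutation), for which r was 0.58 without Space-4 and Space-5. Cyp7a1 with Dbp gave r = 0.52 (p = 0.0363, adjusted 0.127) and rho = 0.51 (p = 0.0351, adjusted 0.123) by exact permutation, and r = 0.64 without Space-4 and Ground-4.

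As a description of likeness, each gene was set against the other 13355 tested genes by the correlation of the same deviations over 18 libraries, which share their scaling and depth. The gene most like Nr0b2 was Immt (r = 0.89) and the gene most like Cyp7a1 was Catsper2 (r = 0.95). For the others these were Htatsf1 for Cyp8b1 (0.85), Mtch2 for Cyp27a1 (0.90), Marveld3 for Cyp7b1 (0.88), Gpld1 for Slc27a5 (0.96), Snrnp48 for Baat (0.94), Gch1 for Slc10a1 (0.97), Mocos for Abcb11 (0.97) and Zfp738 for Nr1h4 (0.90). Among the 10 genes themselves Slc10a1 went with Slc27a5 (r = 0.82) and with Baat (r = 0.80), Slc27a5 went with Abcb11 (r = 0.79), and Abcb11 and Cyp7a1 were opposed (r = -0.71). Space-4 and Ground-5 were lowest in both Slc10a1 and Slc27a5, and without Space-4, Ground-5 and Ground-6, and without Ground-4, then alone in its group and set, these 4 correlations were -0.37, 0.52, 0.48 and -0.32 over 14 libraries. That of Slc10a1 with Slc27a5 thus turned. The correlations with the most alike genes were 0.70 to 0.91 over those 14 libraries. Each of these genes had been picked as the highest of 13355 over libraries that include those 14, so these values cannot show that the likeness holds.

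The wider pathway was read from lists of 18 other synthesis genes, 16 other transport genes and 23 other regulators. Of the synthesis genes, 17 were tested. In replicates 1 to 3, 1 rose in Space and 1 in Ground against BDF1 with 0 lower, and in replicates 4 to 6, 1 rose and 1 fell in each. Among 15 transport genes tested, 1 rose in Space and 1 rose and 1 fell in Ground in replicates 1 to 3, and 1 rose and 2 fell in Space and 1 rose in Ground in replicates 4 to 6. Of 19 regulators tested, 1 rose and 2 fell in both kinds of pups in replicates 1 to 3, and 3 rose in Space and 2 rose and 1 fell in Ground in replicates 4 to 6. The shares of all genes called, in either direction, were 4.64% for Space and 1.92% for Ground in replicates 1 to 3 and 11.9% and 15.2% in replicates 4 to 6, so with lists this small most of these counts are near the background, and nothing is read from them about the lists. Between the pups the single call in these lists was Prox1, in replicates 1 to 3. The medians of the 3 lists in replicates 4 to 6 were -0.17, -0.39 and -0.07 in Space and -0.04, -0.28 and 0.07 in Ground on the log2 scale, beside 0.01 over all genes.

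Prox1, a homeobox regulator of hepatocytes that represses Cyp7a1, changed direction between the sets. Space-1, Space-2 and Space-3 held 50.2 to 55.1 CPM, against 93.9 to 105 in Ground and 94.5 to 124 in BDF1, and this was the 1 gene in the whole table called between the pups in replicates 1 to 3 (log2 change -0.93, SE 0.11, adjusted p = 0.00439). That call was lost without Space-2, Space-3 or Ground-1, with an adjusted p of up to 0.0773. In replicates 4 to 6 both kinds of pups were above BDF1, with 108 to 128 CPM in Space, 114 to 127 in Ground and 63.7 to 71.5 in BDF1, and neither group overlapped BDF1. The log2 changes were 0.83 in Space (adjusted p = 0.000545) and 0.80 in Ground (adjusted p = 0.000424), after -1.01 in Space in the first set (adjusted p = 0.000141). The change of the difference between sets was 1.85 for Space (adjusted p = 3.26e-05) and 0.89 for Ground (adjusted p = 0.00884).

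Among the nuclear receptors, Nr1i2 (PXR, a sensor of xenobiotics and bile acids) rose in Space against BDF1 in both sets, by log2 changes of 0.78 (adjusted p = 0.00687) and 0.77 (adjusted p = 0.00387). In Ground its log2 changes were 0.56 (adjusted p = 0.0578) and 0.44 (adjusted p = 0.0505) within the sets. Over both sets the Ground change was 0.50 (adjusted p = 0.00497), which passed, but not with scaling by total counts. Nr1i3 (CAR, its close relative) was at 302 to 459 CPM in Space and 227 to 590 in Ground against 149 to 196 in BDF1 in replicates 4 to 6, with log2 changes of 1.04 (adjusted p = 0.0279) and 1.22 (adjusted p = 0.00994). The call in Space was lost in 4 of 18 fits without 1 library (adjusted p up to 0.116), and that in Ground in 1 (0.0565). The Space call was also lost with each set fitted alone. Nr2f2 (COUP-TFII) fell in replicates 1 to 3 by 0.71 in Space (adjusted p = 0.0204) and 0.75 in Ground (adjusted p = 0.0268). These 2 calls were lost in 5 and 4 of 18 fits without 1 library, with adjusted p of up to 0.086 and 0.108.

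Slc10a2, the sodium-dependent bile acid transporter of ileum and bile duct cells, rose in Space in both sets and in Ground in the first. Its level in replicates 1 to 3 was 33.8 to 58.3 CPM in Space, 15.7 to 41.6 in Ground and 8.71 to 13.1 in BDF1, and in replicates 4 to 6 it was 22.6 to 32.0, 13.2 to 23.8 and 7.78 to 13.7 CPM. Every Space library lay above every BDF1 library in its set. Space rose by log2 changes of 2.00 (adjusted p = 0.00242) and 1.39 (adjusted p = 0.0124) and Ground by 1.40 in replicates 1 to 3 (adjusted p = 0.0329), while Ground in replicates 4 to 6 gave 0.78 (adjusted p = 0.114). The Ground call was lost in 5 of 18 fits without 1 library (adjusted p up to 0.132) and the later Space call in 2 (up to 0.0616). Averaged over both sets, Slc10a2 rose by 1.70 in Space (adjusted p = 0.000394) and by 1.09 in Ground (adjusted p = 0.00553). Both averaged calls were kept in all 18 such fits. The other 5 bile duct markers, all detected, summed to 22.8 to 29.0, 20.9 to 37.0 and 24.0 to 30.7 CPM in Space, Ground and BDF1 in replicates 1 to 3 and to 22.2 to 23.6, 12.6 to 19.2 and 22.0 to 25.0 CPM in replicates 4 to 6, so in pups they were not above the highest BDF1 library except in Ground 1 to 3. Slc10a5, an orphan member of that family, fell in Space in replicates 4 to 6 (log2 change -1.05, adjusted p = 0.00467). Abcg5, part of the sterol exporter, fell by 0.62 in Ground over both sets (adjusted p = 0.0202), a call lost with group alone in the model.

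Of the synthesis enzymes, Cyp2a12, a bile acid hydroxylase of mice, rose in both kinds of pups in replicates 4 to 6, to 903 to 1016 CPM in Space and 877 to 1083 in Ground from 619 to 737 in BDF1 (log2 changes 0.54 and 0.53, adjusted p = 0.00734 and 0.00605). Cyp2c70, which makes the muricholic acids of mice, rose in Ground in replicates 1 to 3 (log2 change 0.74, adjusted p = 0.0329), and Cyp46a1, the cholesterol 24-hydroxylase, rose in Space (log2 change 1.77, adjusted p = 0.0299) from a level of 1.17 to 1.54 CPM in BDF1. Akr1d1, the steroid reductase of the common route, fell in replicates 4 to 6 by 0.40 in Space (adjusted p = 0.0439) and 0.44 in Ground (adjusted p = 0.0215). Fits without 1 library lost the calls of Cyp2c70, Cyp46a1 and Akr1d1 (Space, then Ground) in 5, 6, 10 and 4 of 18 cases, with adjusted p of up to 0.162, 0.102, 0.159 and 0.0872, and without Space-4, Ground-5 and Ground-6 neither Akr1d1 call nor the Ground call of Cyp2a12 passed. With each set fitted alone, both Cyp2a12 calls and both Akr1d1 calls in replicates 4 to 6 were lost. Averaged over both sets, Cyp46a1 rose against BDF1 in Space (log2 change 1.355, adjusted p = 0.00777) and in Ground (log2 change 1.31, adjusted p = 0.00826). Both of these averaged calls were kept in all 18 fits without 1 library and lost with group alone in the model.

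**Figure D4:**
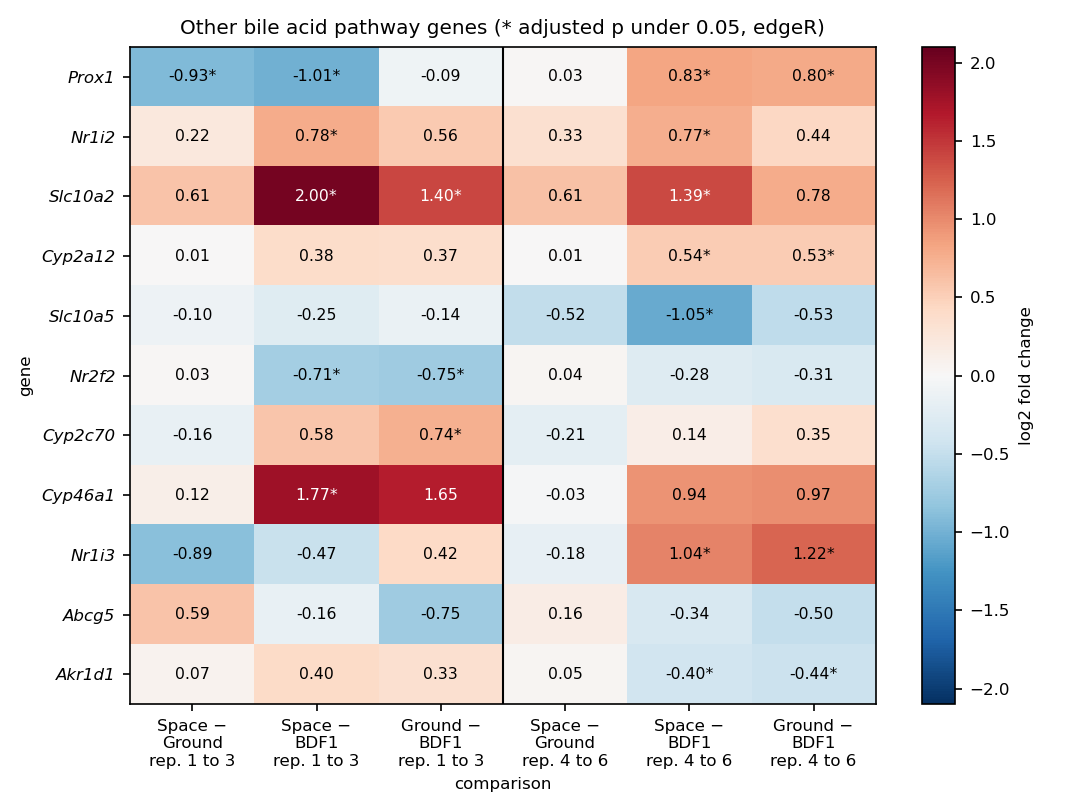
log2 fold changes of the other bile acid pathway genes named here (y axis) in the 6 comparisons within sets (x axis), coloured from blue (lower in the first group) to red (higher), with an asterisk where the adjusted p of edgeR was under 0.05. Prox1 is lower in Space in replicates 1 to 3 and higher in both kinds of pups in replicates 4 to 6, and Slc10a2 is higher in pups throughout, from 0.78 to 2.00 against BDF1.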

How the data were processed

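Per the labels, total RNA of livers was made into stranded mRNA libraries and sequenced in paired-end mode, and the submitters' processing notes name bcl2fastq 2.20, cutadapt 4.6, HISAT2 2.2.1, HTSeq 2.0.2 and mm10. The authors deposited raw counts per gene, whole numbers without normalization, in 1 table of 32285 genes. Every row had a gene name and 10671 had no count. Of the identifiers 32235 matched GENCODE M21 (mm10), which gave positions and exon lengths. How strand and shared reads were handled is not given in the sources used here, so paralogs and overlapping genes are uncertain.

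Samples were grouped and numbered as their titles say. After filterByExpr and TMM scaling, edgeR 4.0.16 in R 4.3.3 fitted quasi-likelihood models over 18 libraries, with 1 mean for each group and replicate set, so that a single estimate of spread served all contrasts. The SE was computed by dividing the size of each log2 change by the root of its F. log2 CPM used a prior count of 2. The 10 genes, the pathway, clock and marker lists and the rule for naming other pathway genes (the 12 with the smallest adjusted p in a group comparison) were chosen with earlier results of these data known. Of those 12, 1 is not reported here. Alternatives were DESeq2 1.42.0 and its size factors, total counts, removal of the 10 most abundant genes, limma 3.58.1 voom with quality weights, other filters, a replicate block, group alone, each replicate set alone and leaving out each library. Removal of Space-4, Ground-5 and Ground-6 was added after seeing the data. Fits were tested on simulated data. Correlations used scipy 1.17.1.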

Additional observations from a re-analysis of the deposited data

Results flagged for a closer look

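In 30 sets of 6 libraries (10 genes in 3 groups), 2 libraries stood far from the rest of their group by Dixon's ratio of gap to range. Each of these groups of 6 holds both replicate sets, and both libraries belong to replicates 4 to 6. Abcb11 was at 909 CPM in Ground-4, the next highest Ground pup was at 684 CPM, and the gap was 0.636 of the range against a critical value of 0.625. Nr1h4 was at 161 CPM in Ground-6, the next was at 108 CPM, and the gap was 0.745 of the range. Chance gives such a gap in about 1 of 20 groups of like libraries, and that rate does not allow for the split into replicate sets.

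The difference from BDF1 mice was unequal between the replicate sets for 3 genes by a test of the difference itself (edgeR). The change from replicates 1 to 3 to replicates 4 to 6 was -1.94 for Nr0b2 in Ground, -0.90 for Cyp27a1 in Ground, -0.70 for Cyp27a1 in Space and -0.74 for Baat in Ground on the log2 scale.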

How the results depend on the processing

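Numbers are genes called of the 10, in the order used above. Scaling by total counts moved the median log2 change over all genes to -0.39 for Space and -0.46 for Ground against BDF1 in replicates 4 to 6, and called 6 and 8 genes there, 5 and 5 over both sets and 2 for the Space difference between sets. The share of all genes called rose with them, to 37.3% and 45.9% in replicates 4 to 6, 33.8% and 34.7% over both sets and 4.04% for the difference between sets. It ended the calls of Prox1 and Cyp2a12 in Ground and of Cyp2a12, Nr1i2 and Nr1i3 in Space against BDF1 in replicates 4 to 6, and, in replicates 1 to 3, of Prox1 between the pups and of Slc10a2, Nr2f2 and Cyp2c70 in Ground against BDF1. DESeq2 called 1 gene in Space against Ground and 1 in Space against BDF1 in replicates 1 to 3, and 3 in Space against BDF1 over both sets, where 0.352%, 7.41% and 16.7% of all genes were called. limma voom gave 1, 1 and 3 in the same places (3.62%, 17.7% and 24.3% of all genes), 0 for Space against Ground in replicates 4 to 6 (0%), 2 for it over both sets (4.17%) and 2 for the Space difference between sets (11.3%). Without a filter on low counts, 2 were called in Space against BDF1 over both sets (7.06% of all genes), while Baat in Ground against BDF1 over both sets and Cyp27a1 in the Space difference between sets lost their calls. With group alone in the model, 0 were called in each of the 3 comparisons over both sets (0%, 3.8% and 3.81%). With each set fitted alone, Space against BDF1 gave 1 and 1 (Cyp8b1, and Cyp7a1 without Cyp27a1; 8.56% and 4.39% of all genes) and Space against Ground in replicates 4 to 6 gave 0 (0%). Calls of Cyp2a12 and Akr1d1 in both kinds of pups and of Nr1i3 in Space in replicates 4 to 6 were lost there too. Without Space-4, Ground-5 and Ground-6, Space against Ground gave 1 and Space against BDF1 gave 2 in replicates 1 to 3 (0.198% and 8.55% of all genes), Space against BDF1 gave 4 over both sets (13.6%), and the Space difference between sets gave 2 (5.49%).

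With the replicate number as a replicate block, 0 were called in Space against Ground in replicates 4 to 6, 0 in Space against BDF1 over both sets, 0 for the Space and 1 for the Ground difference between sets. The calls lost among the 10 were Nr0b2 between the pups in replicates 4 to 6 (adjusted p = 0.111), Cyp7a1 in Space (0.0768) and Baat in Ground (0.0582) against BDF1 over both sets, and the differences between sets of Cyp27a1 in Space (0.1002) and Ground (0.0507) and of Baat in Ground (0.0669). Other pathway calls lost included, in replicates 1 to 3, Prox1 between the pups, Slc10a2, Nr2f2 and Cyp2c70 in Ground and Nr2f2 in Space against BDF1, besides Akr1d1 in Space in replicates 4 to 6. Same-numbered libraries deviated together from group means (r from 0.195 to 0.637) no more than other libraries of their set (median 0.465 against 0.499), and 5 of 18 were closest to their own number, so the numbers carried the set.

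Leaving out 1 library gave 0 to 1 genes for Space against Ground in replicates 4 to 6 and over both sets, 0 to 1 and 0 to 2 for Space against BDF1 in replicates 1 to 3 and over both sets, 3 to 5 for Ground against BDF1 in replicates 4 to 6, and 0 to 1 for the Space difference between sets. The shares of all genes called ran from 0% to 0.552% and 0% to 3.94%, 1.48% to 5.66% and 7.67% to 15%, 8.20% to 17.6%, and 1.63% to 4.41% in these fits. Among changes called in at least 1 fit, directions turned for Abcb11 in replicates 4 to 6 minus 1 to 3 (-0.0496 with total counts) and for Abcb11 in Ground against BDF1 in replicates 4 to 6 (0.14 without the 3 libraries). The relation of Cyp7a1 and Cyp8b1, which passed in neither scaling, turned as well (r from 0.02 to -0.29 with total counts). Of the 60 changes of the 10 genes within sets, 24 turned in at least 1 alternative. All but that of Abcb11 in Ground were called in no fit, and the largest was 0.37 in size, for Nr1h4 in Ground against BDF1 in replicates 4 to 6, which ran down to -0.13. The causes were not tested. Depth set no limit on these genes, whose lowest count was 130 (Nr0b2 in Ground-6).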
